A study of Salvia miltiorrhiza with 5 samples.

Results

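The leaf small RNA library of *Salvia miltiorrhiza*, a medicinal sage, was set against the libraries of root, stem and flower. The comparison covered 95 of the 241 distinct miRNA sequences in the table, those with at least 10 reads over the 4 libraries, after reads of identical sequences under different names were added up. Of the 95, 79 had at least 1 read in leaf, 1 had 0.5 of a divided read and 15 had 0. The plants were cultivated in a field for 8 months and were in flower, and the labels give neither a genotype, a treatment nor the number of plants. With 1 library for each tissue there is no spread between plants to set a difference against, so no test was run. Intervals cover the counting of reads only, and reads amplified without molecular identifiers are not independent molecules. Fewer cells of a type and less RNA per cell cannot be told apart in whole tissue.

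A plant miRNA is cut from a folded precursor, loaded into an ARGONAUTE protein and guides it to mRNAs of nearly complementary sequence, which are then cleaved or translated less. Many old families act on transcription factors that shape leaves, time the change from juvenile to adult growth or answer to auxin. Others act on genes of copper, sulfate and phosphate nutrition.

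The sequences that carry the leaf comparison are shown first, as DNA letters from 5′ to 3′ with the seed, bases 2 to 8, in capitals. The first set holds those at least 2-fold higher in leaf than in each other library by normalized count, and no seed occurs more than once among them. Under 5 scalings of the libraries, lus-miR159b_R+1_1ss19CT, csi-miR159_L+3R-1 and hbr-miR6173_L+1 held this place in 2, and osa-miR319a-3p.2-3p_R+1 in 1. Those in all 5 were cpa-miR395a_L+1, bdi-miR529-5p and PC-5p-280154_4, each on 8 leaf reads. These calls use no counting interval. The sequence csi-miR159_L+3R-1 contains ath-miR159a_R-1 whole.
cpa-miR395a_L+1: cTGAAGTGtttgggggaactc
bdi-miR529-5p: aGAAGAGAgagagtacagcct
ppe-miR398b_R-1_1ss2GA: cATGTTCTcaggtcgcccct
aly-miR408-3p_L-1R+1: tGCACTGCctcttccctggct
dpr-miR167a: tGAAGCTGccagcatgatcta
hbr-miR6173_L+1: tAGCCGTAaacgatggatact
lus-miR159b_R+1_1ss19CT: tTTGGATTgaagggagctttct
csi-miR159_L+3R-1: gTTTTTGGattgaagggagctct
osa-miR319a-3p.2-3p_R+1: tTGGACTGaagggtgctccct
PC-5p-92321_13: tATATACGtggtttctgata
PC-5p-280154_4: aATCAGGTcttgaaagca

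The second set holds sequences that were low in leaf, with the miR159a sequence, which was not. Its first entries are shown because the shorter, named miR159 in the table, lies whole within the longer, named miR319.
vvi-miR319b_R-1: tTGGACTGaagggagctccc
ptc-miR159d_L-1R-1_1ss7TC: tTGGACTGaagggagctcc
ath-miR159a_R-1: tTTGGATTgaagggagctct
csi-miR164: tGGAGAAGcagggcacgtgca
cpa-miR390a: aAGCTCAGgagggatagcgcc
osa-miR171b: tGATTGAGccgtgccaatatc
lus-miR171h_L-1R+1: tGAGCCGAaccaatatcactc
osa-miR5072_L-4_1ss13GA: tCCCCAGCagagtcgcca

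The leaf library had the fewest reads in the table, 238148 against 380306 to 499434 in the others. It was not the least sequenced, since the study gives fewer raw and clean reads for flower than for leaf. The normalized count is the number of reads times 1 factor for the library, which was 1.90 in leaf and 0.547 to 1.41 elsewhere. A leaf read thus stood for 1.90 normalized counts, and the 3 reads that a count of 0 allows stood for 5.70. In leaf 42 sequences had at least 10 reads, against 51 to 56 in the other libraries, and its 10 most abundant sequences held 98.7% of its reads.

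By normalized count, 24 sequences were at least 2-fold higher in leaf than the mean of the other libraries and 34 were at least 2-fold lower, 25.3% and 35.8% of the 95. The balance turned with the flower library left out, which gave 34 higher and 23 lower, and against the median of the others, which gave 29 and 23. With the counting interval also past equality, 22 (23.2%) were higher and 20 (21.1%) lower. Leaf was the highest library for 27 sequences (28.4%), flower for 35, root for 23 and stem for 10. As shares of the table reads, 19 sequences were higher in leaf (20%), 40 lower (42.1%) and 22 highest (23.2%), and the calls shared by both measures were 18 higher and 32 lower. Per clean read of the library, the split was 11 higher (11.6%), 54 lower (56.8%) and 12 highest (12.6%). Shares without the 10 most abundant sequences gave 14 higher (14.7%), 47 lower (49.5%) and 15 highest (15.8%), and median-of-ratios factors gave 20 (21.1%), 36 (37.9%) and 27.

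The median log2 ratio of leaf to the mean of the others was -0.41 by normalized count, -0.48 by share and -1.43 per clean read, and by normalized count it was 0.35 when the flower library was left out. Measured from the median of each scaling, 26 sequences stood at least 2-fold above it under all 5 scalings, and 26 at least 2-fold below it.

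**Figure D1:**
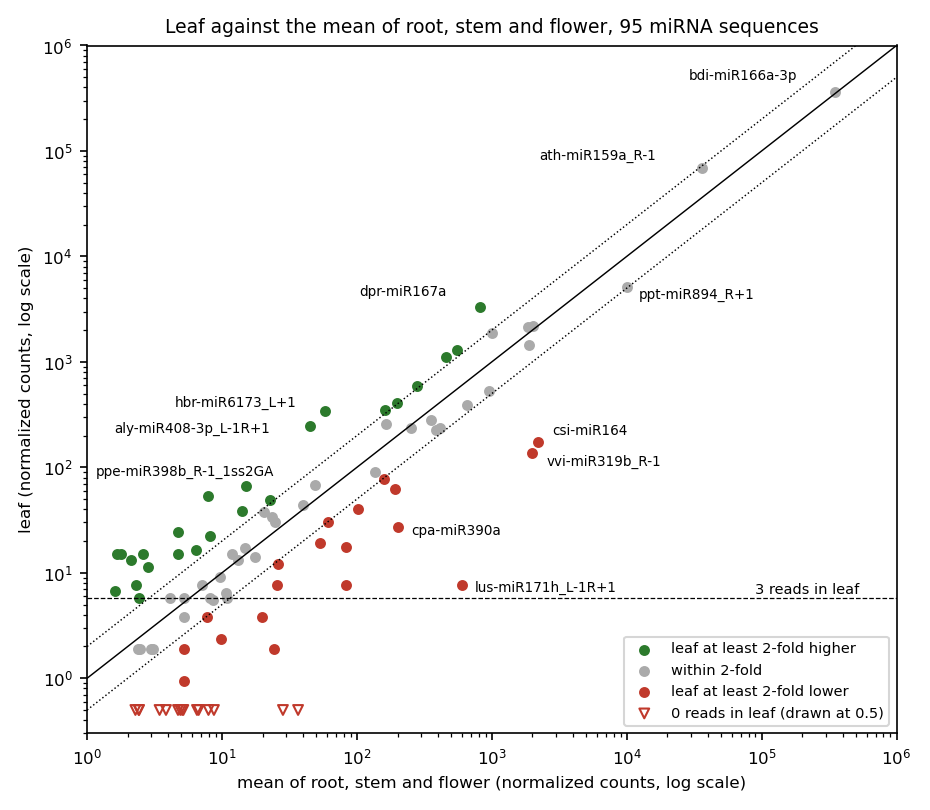
Normalized counts in leaf (vertical, log scale) against the mean of root, stem and flower (horizontal, log scale) for the 95 sequences, with a solid line at equal level, dotted lines at 2-fold and a dashed line at 3 leaf reads. The 24 sequences higher in leaf lie above the upper dotted line, and the 15 with 0 leaf reads are open triangles drawn at 0.5.

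The mean of 3 libraries can be set by 1 of them, so leaf was also compared with each library by itself. For a higher call, a value of 0 elsewhere was read as 3 reads. A lower call required reads in the library itself, so the 15 sequences at 0 in leaf could not be called lower. Leaf was at least 2-fold above each of the others for 11 sequences (11.6%) and at least 2-fold below each for 2 (2.11%). By share these counts were 9 (9.47%) and 3 (3.16%), and per clean read 3 (3.16%) and 11 (11.6%). The same rule by normalized count placed root above for 5 sequences and below for 15, stem for 0 and 2, and flower for 23 and 3.

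Low values in leaf often went with a peak in 1 other library. Of the 19 lower sequences that had leaf reads, the highest library was flower for 12 and root for 7. When that library was set aside, 6 of the 19 were still at most 0.5 of the mean of the rest, and 4 were at least 2-fold higher in leaf. Of the 24 higher sequences, leaf was the highest library for 23, and the next library was flower for 13, stem for 10 and root for 1.

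Over the 95 sequences the leaf levels ranked most like stem, with a Spearman coefficient of 0.84, then flower with 0.75 and root with 0.62. These are descriptions of single pairs of libraries, over sequences that share those libraries. Of the 80 sequences read in both leaf and stem, 27 were at least 2-fold higher in leaf and 7 lower by normalized count, but 17 and 20 by share. Against flower, 20 of 77 were higher in leaf and 28 lower by normalized count, but 29 and 20 by share. The direction of both comparisons thus changed with the scaling, while against root 32 of 73 were higher and 12 lower by normalized count, and 26 and 19 by share.

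The copper families miR397, miR398 and miR408 act on laccases, Cu/Zn superoxide dismutases and the blue copper protein plantacyanin. Of their 4 sequences, 3 were at least 2-fold higher in leaf and 1 lay within 2-fold, with a median log2 ratio of 1.77. Over all 95, 25.3% were higher by normalized count. Of the 3 higher, 2 were forms of miR398. In the medians given for lists, a 0 in leaf was read as 3 reads, and the median over all 95 was then 0.09. For the miR408 sequence, aly-miR408-3p_L-1R+1, leaf had 245 normalized counts, flower 100.4, root 23.4 and stem 11.0. Leaf was the highest and flower the next, and the ratio of leaf to the mean of the others was 5.44 (95% counting interval 4.23 to 7.01), with 6.0 by share and 2.91 per clean read. The shorter miR398 sequence, ppe-miR398b_R-1_1ss2GA, reached 53.2 normalized counts in leaf, against 16.9 in flower, 5.0 in stem and 1.64 in root, a ratio of 6.78 (3.81 to 12.1).

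The other copper sequences did not set leaf apart from flower. The longer miR398 form, aqc-miR398b_L+2R-2, reached 48.8 normalized counts in leaf and 61.0 in flower but 2.62 in stem and 4.74 in root, and by share leaf exceeded flower. Its sequence, cATGTGTTctcaggtcgcccc, has another seed than the shorter form. Within miR398, the shorter form held 52.2% of the leaf reads (exact binomial interval 37.8 to 65.7), 58.3% in stem, 25.7% in root and 21.7% in flower. The miR397 sequence, mdm-miR397a_1ss20AC, had 7.61 normalized counts in leaf on 4 reads, below 16.9 in flower and above 3.83 in root and 0.715 in stem.

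Among the families of sulfate and phosphate supply, 1 of 4 sequences was higher in leaf, 1 lower and 2 within 2-fold, with a median log2 ratio of 0.07. Over all 95, 25.3% were higher and 35.8% lower. The higher one was miR395, whose targets in Arabidopsis are ATP sulfurylases and a sulfate transporter. The 8 leaf reads of cpa-miR395a_L+1 gave 15.2 normalized counts, against 2.82 in flower, 2.14 in stem and 0 in root. Its ratio was 9.20 with a lower bound of 2.89, and leaf was at least 2-fold above each library under all 5 scalings. The miR827 sequence, csi-miR827_1ss9CT, had 38.0 normalized counts in leaf and 52.1 in flower against 5.0 in stem and 4.38 in root. Of miR399, which acts on the phosphate regulator PHO2, mtr-miR399k_1ss13TA had 3.80 normalized counts in leaf on 2 reads but 57.8 in flower, while root had 1.09 and stem 0.715. The low ratio there came from flower alone, since leaf was 4.2 times the mean of root and stem.

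**Figure D2:**
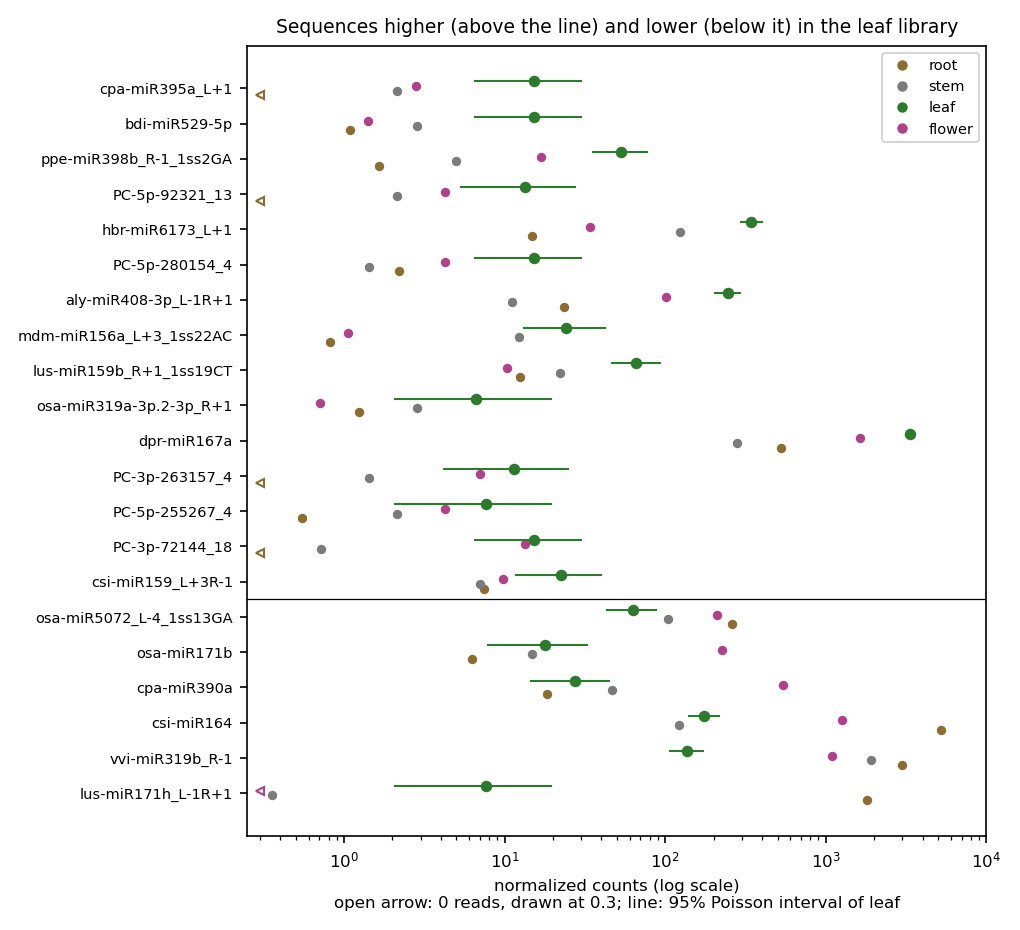
Normalized counts (log scale) of 15 sequences higher in leaf, above the line, and 6 lower in leaf, below it, with 1 point for each library and the 95% Poisson interval of the leaf reads. Leaf is the rightmost point in every row above the line, and below it leaf is leftmost for vvi-miR319b_R-1 and osa-miR5072_L-4_1ss13GA.

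The miR156 and miR529 families share SPL transcription factors of the juvenile-to-adult change as targets, and miR172 acts on AP2-like factors. Of 13 sequences on this list, 4 were higher in leaf, 3 lower and 6 within 2-fold, against 25.3% higher and 35.8% lower over all 95, with a median log2 ratio of 0.12. By share as well, 3 were higher and 3 lower, and of these 3 lower 2 had 0 leaf reads. For bdi-miR529-5p the 8 leaf reads gave 15.2 normalized counts, against 2.86 in stem, 1.41 in flower and 1.09 in root. The ratio was 8.51 (2.98 to 24.3), and leaf was at least 2-fold above each library under all 5 scalings. Another miR529 sequence, ppt-miR529e, was read 3 times in leaf and in no other library, and fell outside the 95 for its low count. It is aGAAGAGAgagagtacagccc, with the substitution T21C against bdi-miR529-5p, counted from 1 at the 5′ end.

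Within miR156 the form with most reads in leaf differed from that of every other library, which held for no other family of the lists. The forms concerned are shown for this reason.
lus-miR156a: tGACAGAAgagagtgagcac
rco-miR156f: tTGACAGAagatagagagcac
bdi-miR156b-5p_L+1_1ss20AC: tTGACAGAagagagtgagccc
mdm-miR156a_L+3_1ss22AC: aGTTGACAgaagagagtgagccc

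In leaf lus-miR156a led with 37.8% of the miR156 reads (33.8 to 41.9), against 33.2% in flower, 21.9% in stem and 23.8% in root. The form rco-miR156f led in root with 43.6% and in flower with 37.2%, but held 21.7% in leaf (18.4 to 25.4). In stem the leader was bdi-miR156b-5p_L+1_1ss20AC with 36.6%, and it held 32.3% in leaf (28.5 to 36.4). This interval overlaps that of lus-miR156a in leaf, so the counts do not settle which of them led there. A ratio within a library is free of the factor between libraries, and lus-miR156a had 1.74 reads for each of rco-miR156f in leaf (1.39 to 2.17), 0.893 in flower, 0.732 in stem and 0.546 in root. The long form mdm-miR156a_L+3_1ss22AC, which contains bdi-miR156b-5p_L+1_1ss20AC whole, was 5.12 times the mean of the others in leaf (2.51 to 10.4). Leaf had 24.2 normalized counts of it and stem 12.3, while flower had 1.06 and root 0.821.

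**Figure D3:**
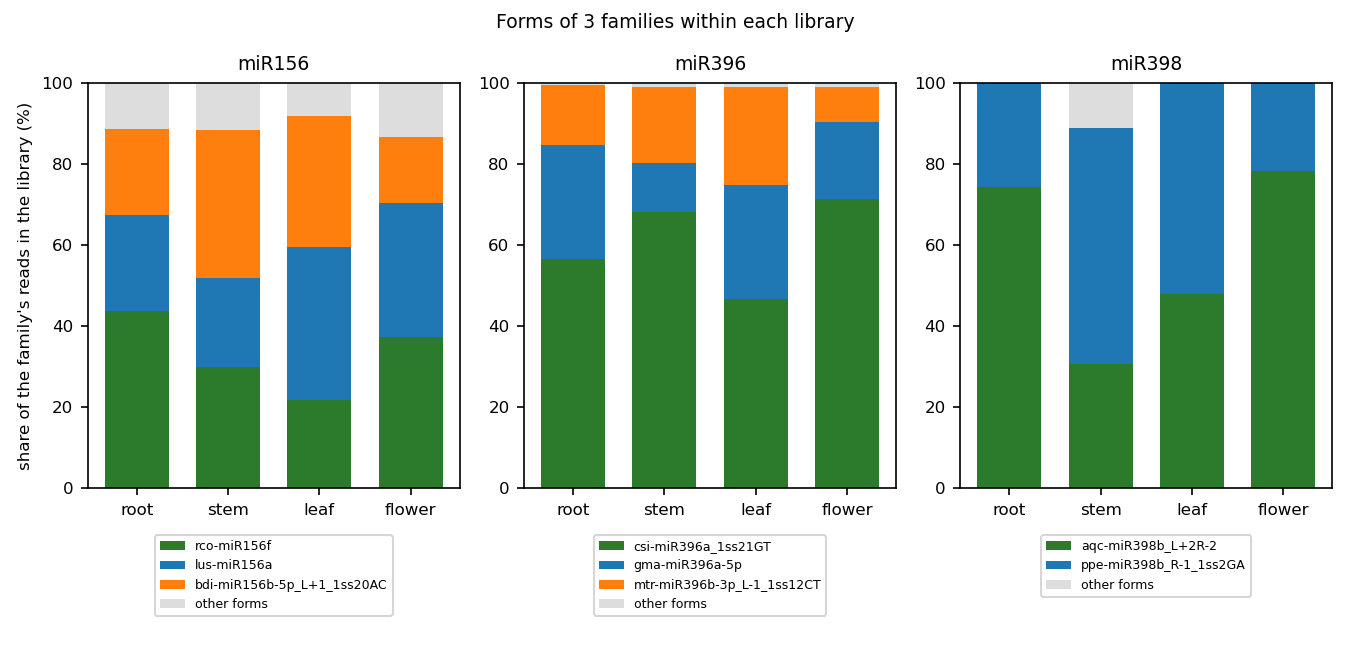
Share of the reads of miR156, miR396 and miR398 held by their main forms in each library, in percent, with other forms in grey. In leaf lus-miR156a holds 37.8% of miR156 and rco-miR156f 21.7%, its smallest share among the libraries.

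For miR172 the forms told leaf from flower. The sequence nta-miR172d had 89.4 normalized counts in leaf, between 15.5 in flower and 166 in root, with 224 in stem, and it held 92.2% of miR172 in leaf. The sequence tcc-miR172d_1ss1AT had 0 reads in leaf but 47.7 in flower, with 11 in stem and 18 in root. Leaf was at least 4.96-fold lower than the mean when the 0 was read as 3 reads, and this form held at most 6.98% of miR172 in leaf by the exact interval, against 79.0% in flower.

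Of 5 sequences in the auxin families, 2 were higher in leaf, 1 lower and 2 within 2-fold, with a median log2 ratio of 0.36. When the share had to pass as well, 1 was higher and 0 were lower, and over all 95 the normalized counts gave 25.3% higher and 35.8% lower. The largest by reads was dpr-miR167a, of the family that targets the auxin response factors ARF6 and ARF8. Its rank was 4 in leaf and 6 in flower, but 14 in root and 15 in stem. Leaf had 3345 normalized counts of it and flower 1636, while root had 528 and stem 278. The ratio was 4.11 (3.86 to 4.38) and 4.18 by share, but 2.16 per clean read, under which leaf was not 2-fold above each library. Of miR393, directed at auxin receptors, the form of 22 nucleotides held 84.7% in leaf (77.6 to 89.9). The miR160 sequence, which acts on other auxin response factors, had 15.2 normalized counts in leaf, within the range of the other libraries from 4.93 to 16.4.

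The families of leaf growth and polarity are miR159 on MYB factors, miR319 on TCP factors, miR164 on NAC factors, miR166 on class III HD-ZIP factors, miR396 on growth-regulating factors and miR390, which starts the tasiRNAs against auxin response factors. Of their 28 sequences, 7 were at least 2-fold higher in leaf, 11 lower and 10 within 2-fold, and the median log2 ratio was -0.02. By both measures 4 were higher and 10 lower, against 18 and 32 of all 95. The higher count by normalized count was near the 25.3% of all 95, of which 35.8% were lower. Of the 11 lower, 3 had 0 leaf reads and were not 2-fold lower with the 0 read as 3 reads.

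Among sequences with leaf reads, the lowest in leaf beside every other library was vvi-miR319b_R-1. It had 136 normalized counts in leaf, against 2981 in root, 1901 in stem and 1100 in flower. Leaf was 14.6-fold lower than their mean, 21.6-fold by share and 30.3-fold per clean read, and it was 0.0908 of the mean of stem and flower when root was set aside. Only 1 other sequence with leaf reads was at least 2-fold below each library, ptc-miR159d_L-1R-1_1ss7TC with 1.25 leaf reads. Its letters lie within those of vvi-miR319b_R-1, and both held this place under all 5 scalings. In the other direction, osa-miR319a-3p.2-3p_R+1 was 4.16 times the mean of the others (1.12 to 15.4) on 3.5 leaf reads. It held 4.66% of miR319 in leaf (1.47 to 13.1) and at most 0.150% elsewhere.

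The miR159a sequence did not share this low level. It had 68414 normalized counts in leaf, 41783 in root, 34514 in stem and 32276 in flower, a ratio of 1.89, with 1.39 by share and 0.93 per clean read. Aligned from the first base, ath-miR159a_R-1 and vvi-miR319b_R-1 differ by 12 substitutions, with T3G, G5A, A6C and T8G in the seed. With its first base left out, ath-miR159a_R-1 matches vvi-miR319b_R-1 at most positions. The 12 thus do not measure how alike the sequences are. In leaf there were 502 reads of ath-miR159a_R-1 for each of vvi-miR319b_R-1 (398 to 633), against 29.3 in flower, 18.2 in stem and 14.0 in root. A longer relative, lus-miR159b_R+1_1ss19CT, had 65.9 normalized counts in leaf, 22.2 in stem, 12.4 in root and 10.3 in flower.

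The miR164 family was low in both leaf and stem. The sequence csi-miR164 had 175 normalized counts in leaf and 122 in stem, against 5223 in root and 1267 in flower, and leaf was 12.6-fold lower than the mean of the others. The order of leaf and stem changed with the scaling, since the shares were 0.0386% in leaf and 0.0450% in stem. Without root, leaf was 0.252 of the mean of stem and flower. The sequence zma-miR164c-3p_2ss7CT16TC, of the opposite arm, had 7.61 normalized counts in leaf, 8.58 in stem, 171 in root and 70.4 in flower. In leaf there were 19.1 reads of dpr-miR167a for each of csi-miR164 (15.5 to 23.6), against 2.27 in stem, 1.29 in flower and 0.101 in root.

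**Figure D4:**
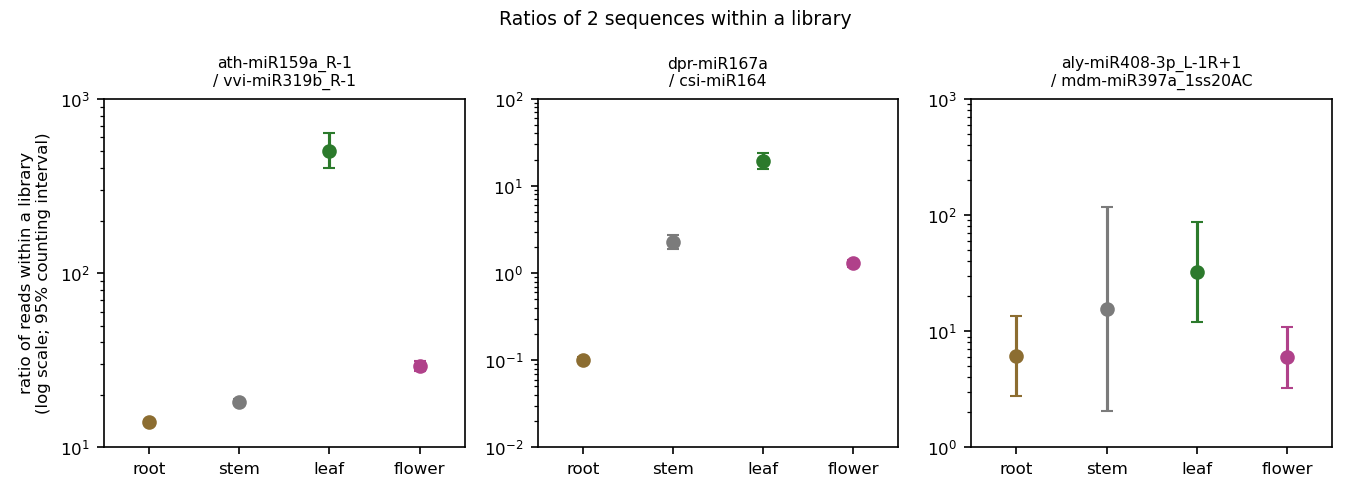
Ratio of the reads of a pair of sequences within each library (log scale) with 95% counting intervals. The leaf ratio is 502 for ath-miR159a_R-1 to vvi-miR319b_R-1, 19.1 for dpr-miR167a to csi-miR164 and 32.2 for aly-miR408-3p_L-1R+1 to mdm-miR397a_1ss20AC, where its interval from 11.9 to 87.0 overlaps those of root and stem.

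For miR390 the ratio rested on flower. The sequence cpa-miR390a had 27.3 normalized counts in leaf, 18.3 in root, 46.6 in stem and 543 in flower, 7.44-fold lower in leaf than the mean. Without flower, leaf was 0.840 of the mean of root and stem.

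The miR166 sequence bdi-miR166a-3p was the most abundant in every library and made up 79.5% of the leaf reads, against 79.2% in stem, 72.7% in root and 90.7% in flower. The ratio of leaf to the mean of the others was 1.03, and 0.984 by share. Its opposite arm, bdi-miR166e-5p, was read once for each 1280 reads of bdi-miR166a-3p in leaf (1089 to 1504). This ratio lay within the leaf interval in stem, with 1225, and in flower, with 1247, and was 524 in root.

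The forms of miR396 were shared out more evenly in leaf than elsewhere. The sequence csi-miR396a_1ss21GT held 46.8% of the family in leaf (44.8 to 48.8), 56.6% in root, 68.1% in stem and 71.4% in flower. The form gma-miR396a-5p, with the substitution T21G against it, held 28.0% in leaf, near the 28.1% in root and above 19.1% in flower and 12.1% in stem. The opposite arm, mtr-miR396b-3p_L-1_1ss12CT, held 24.2% in leaf (22.5 to 25.9), its largest share, against 18.8% in stem, 14.9% in root and 8.53% in flower.

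Of miR171 on GRAS factors, miR169 on NF-YA subunits and miR394 on an F-box protein, 0 of 6 sequences were higher in leaf, 4 were lower and 2 lay within 2-fold, with a median log2 ratio of -0.98. Over all 95, 25.3% were higher and 35.8% lower. Of the 4 lower, ptc-miR171j_L-1R+1_1ss10TC had 0 leaf reads and was not 2-fold lower with the 0 read as 3 reads. It lies whole within lus-miR171h_L-1R+1. The sequence lus-miR171h_L-1R+1 had 7.61 normalized counts in leaf on 4 reads, 1816 in root, 0.357 in stem and 0 in flower. Its 79.6-fold lower level in leaf came from root alone, and leaf stood above stem and flower. The sequence osa-miR171b had 17.7 normalized counts in leaf against 226 in flower, 14.8 in stem and 6.29 in root, and without flower leaf was 1.69 times the mean of the rest. For ath-miR394a leaf had 78.0 normalized counts and stem 78.6, below 183 in root and 213 in flower.

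The 3 sequences of the small RNA machinery lay within 2-fold, with a median log2 ratio of 0.64. For gma-miR168a, which acts on ARGONAUTE1, leaf had 1875 normalized counts, flower 1136, stem 1099 and root 762. The opposite arm was read once for each 7.30 reads of gma-miR168a in leaf (6.10 to 8.74), 8.10 in flower, 5.30 in root and 5.25 in stem. For har-miR403a, of the family on ARGONAUTE2, leaf had 2158 normalized counts, between 2797 in stem and 1299 in root, and its ratio of 1.16 was 0.832 by share. The single miR858 sequence, of a family on MYB factors, lay within 2-fold with a log2 ratio of 0.49, which was -0.54 per clean read, and the single miR482 sequence, of a family on disease-resistance genes, was lower with -1.03 on 2 leaf reads.

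Of 9 sequences of families known from few plants, 1 was higher in leaf, 4 lower and 4 within 2-fold, against 25.3% higher and 35.8% lower over all 95, with a median log2 ratio of -0.95. The higher one was hbr-miR6173_L+1, with 344 normalized counts in leaf, 124 in stem, 33.8 in flower and 14.8 in root. The ratio was 5.97 (4.89 to 7.29) and 4.07 by share, under which leaf was not 2-fold above each library. The sequence osa-miR5072_L-4_1ss13GA had 62.8 normalized counts in leaf, 104 in stem, 211 in flower and 260 in root, 3.05-fold lower in leaf. Leaf remained at 0.398 of the mean of stem and flower without root. The miR894 sequence, which ranked 3 in each library, was at 0.518 of the mean of the others, and the miR2916 sequence, which ranked 8 in leaf, at 0.753.

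**Figure D5:**
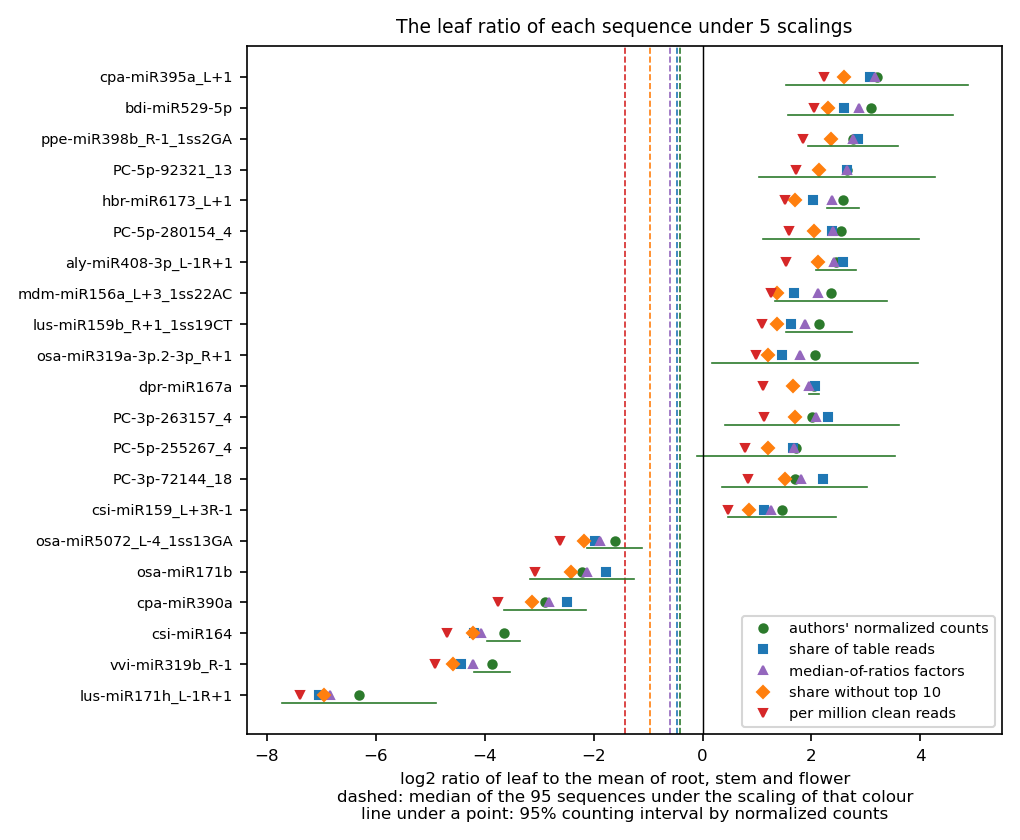
log2 ratio of leaf to the mean of root, stem and flower under 5 scalings for 21 sequences, with dashed lines at the median of the 95 under each scaling and a line under each point for the counting interval by normalized count. Each of the 21 stays on its side of 0, which was partly set by choosing them for their ratios. The medians, with a 0 in leaf ranked lowest, run from -0.41 to -1.43.

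Summed by family, the values followed those of the leading sequences. By normalized count leaf was higher for miR529 (9.27-fold), miR395 (9.20), miR6173 (5.97), miR408 (5.46), miR167 (4.10), miR398 (3.29) and miR530 (2.10), of which miR530 was within 2-fold by share (1.75) and per clean read (1.06), and miR398 per clean read (1.79). It was lower for miR171 (27.4-fold), miR319 (14.0), miR164 (12.5), miR390 (7.62), miR5072 (3.05), miR3630 (2.79), miR5077 (2.76), miR399 (2.57), miR394 (2.03), miR169 (2.02) and miR477 (2.01), of which miR399 was within 2-fold by share (1.89). The ratio intervals crossed equality for miR5077 on 1 leaf read (0.047 to 2.76) and miR169 on 6 (0.215 to 1.14). Of the 37 families with at least 10 reads, 18.9% were higher and 29.7% lower.

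The make-up of the leaf reads leaned to sequences that start with T, which held 98.4% of them, against 97.5% in flower, 97.2% in stem and 94.5% in root. Sequences that end in CCA, as mature tRNAs do, took 1.28% in leaf, 2.05% in flower, 2.19% in stem and 4.82% in root. Without the miR166a-3p and miR159a sequences the CCA share was 23.8% in leaf, 27.1% in stem, 40% in root and 44.1% in flower, so leaf was the lowest either way. Among the 95 sequences 5 end in CCA, with 2 of the 32 lower in leaf by both measures and 0 of the 18 higher.

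Predicted miRNAs, which the authors placed on ESTs of the plant, made up 19 of the 95 sequences. In leaf 5 were at least 2-fold higher, 5 lay within 2-fold and 9 had 0 reads, with a median log2 ratio of 0.27. Over all 95, 25.3% were higher and 15 sequences had 0 reads. PC-5p-280154_4, from a predicted precursor at positions 97 to 215 of EST CV167132, had 8 reads in leaf, 4 in root, 3 in flower and 2 in stem. The ratio was 5.82 (2.15 to 15.7), and leaf was at least 2-fold above each library under all 5 scalings. PC-5p-92321_13 reached 13.3 normalized counts in leaf, against 4.23 in flower, 2.14 in stem and 0 in root. PC-3p-72144_18, tATACGTGgtttctgata, lies whole within it, so they are not independent, and had 15.2 normalized counts in leaf and 13.4 in flower. PC-3p-263157_4 and PC-5p-255267_4 had 6 and 4 leaf reads.

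For most of the 15 sequences at 0 in leaf, a lower level was not detectable at this number of table reads. With the 0 read as 3 reads, tcc-miR172d_1ss1AT and PC-3p-59794_23 remained at least 2-fold lower, the second by at least 6.42-fold against 109.9 normalized counts in flower and 0 in root and stem. The other 13 had bounds from 0.400 to 1.53. The count of lower sequences was 21 in place of 34 with zeros read in this way.

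Of the 95 sequences, 9 have a cleaved transcript in the degradome table, which comes from 1 library of mixed tissues and so holds no leaf value. Of the 18 sequences higher in leaf by both measures 0 were among the 9, and of the 32 lower by both measures 6 were, 2 of them with 0 leaf reads. By normalized count alone, gma-miR396a-5p and tcc-miR530b_R+1 were higher in leaf, and each of their sites had 1 degradome read. The pair csi-miR164 and lus-miR164a_R-1, the shorter lying within the longer, shared both of their transcripts with 3 reads at each site. These are the ESTs CV165125 and CV165450. The authors also placed a precursor of lus-miR164a_R-1 on the minus strand of each, at positions 95 to 212 and 238 to 350. Whether they are target mRNAs apart from the precursor was not tested.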

How the data were processed

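Libraries were assigned to root, stem, leaf and flower by their tissue label, 1 library each. The authors kept reads of 18 to 25 nt that matched no other class of RNA, and used ACGT101-miR 4.2 to compare them with plant precursors of miRBase 20.0 and with ESTs, allowing 1 mismatch. The deposited reads are estimated counts, a read being split over the entries it matched. The deposited normalized counts are a signal, reads times 1 factor for each library, and how the factor was set is not given in the sources used here. For the degradome, the authors deposited a read count for each cleavage site and another value, its category, from CleaveLand 3.0.

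The 650 entries (488 names) were summed for each distinct sequence, and 6 lines of the table are not analysed here. A call was a fold of 2 between leaf and the mean of root, stem and flower. The study used chi-squared and ANOVA tests on normalized counts, but 1 library for each tissue leaves no replicates, so none was run here. Ratios have 95% Poisson intervals by the delta method on the log scale, shares have exact binomial intervals on rounded reads, and a 0 allows 3 reads. Only the ratio intervals were tested on simulated data, with Poisson reads as the intervals assume, so the test does not cover amplified or split reads. The 5 scalings were normalized counts, shares of table reads, reads per clean read of the library (totals from the study), shares without the 10 most abundant sequences and median-of-ratios factors. Other alternatives were the minimum of reads, the unit counted, the libraries averaged and the fold.

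The rule named the 10 sequences with most leaf reads, the 15 with the largest and the 10 with the smallest ratio past a fold of 2 by normalized count and by share, sequences with 3 or more reads in leaf alone, families of the lists with 10 or more reads, families whose leading form in leaf differed from every other library, and members with degradome targets. The 10 smallest ratios are all at 0 in leaf, so other low sequences were chosen after their values were seen, as were within-2-fold sequences outside the rule, ratios between families, and the comparisons with each library by itself or without the highest one. The members, lists and rule were chosen with earlier results of these data known. Sequences are those of the deposited table. The tools were Python 3.11.15 with pandas 2.3.3, numpy 2.4.6, matplotlib 3.10.9 and scipy 1.17.1.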

Additional observations from a re-analysis of the deposited data

How the results depend on the processing

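The median log2 ratio was -0.41, or 0.09 with leaf zeros at 3 reads. The main counts were 24 sequences higher in leaf, 34 lower and 27 with leaf highest. Per clean read they were 11, 54 and 12, with a median of -1.43, and without the 10 most abundant sequences 14 were higher and 15 highest, with a median of -0.97. Size factors gave a median of -0.59. With at least 1 read there were 62 higher, 104 lower and 61 highest, with a median of -0.94, and with at least 30 reads 15 higher and 19 lower, with -0.29. Counted per family there were 7 higher, 11 lower and 10 highest, with -0.70, and per name the median was -0.29. A fold of 4 gave 12 higher, and a counting interval past 1 gave 20 lower. The median was -0.57 without stem, 0.35 without flower and 0.32 against the median of the others. Of the alternatives added after the data were seen, leaf zeros at 3 reads gave 21 lower. Centring on the median gave 28 higher and 29 lower, the leaf zeros included. Leaf above each other library numbered 11, and 9, 3, 6 and 10 by share, clean reads, without the top 10 and size factors, and leaf below each 2, and 3, 11, 7 and 2. The cause of these shifts was not tested. Of the 30 named sequences with a leaf ratio, 6 turned sign under at least 1 scaling or set of libraries (bdi-miR166a-3p, csi-miR396a_1ss21GT, har-miR403a, aly-miR858-5p_L-1R+1_1ss5GA, gma-miR168a and ath-miR159a_R-1), and these were within 2-fold by normalized count. Without flower 34 were higher and 23 lower, and against the median of the others 29 and 23. No paired analysis was possible because each tissue has 1 library.

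The small number of table reads limits the leaf values, with 1 read worth 1.90 normalized counts and 15 sequences at 0. Relative levels between libraries rest on factors whose origin is not given, and the spread between plants was not measured.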
